A study of Mus musculus with 21 samples.

Results

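Newborn mouse tissue was examined for genes of the oligodendrocyte lineage, the glial cells that wrap the axons of the brain and spinal cord in myelin. They were 9 of the 24391 genes in the count files, found by symbol. Of the 9 genes, 5 belong to the precursor stage (Olig1, Olig2, Pdgfra, Cspg4 and Sox10) and 4 to myelin (Mbp, Cnp, Mag and Mog). They were listed by name, with earlier results of these data known. RNA sequencing had been performed on the brain, skin and liver of newborn C57BL/6 mice, with 2 knock-in (KI) and 5 wild-type (WT) libraries for each tissue, 21 libraries in all. The study's methods give 2 KI and 5 WT mice in all, so the 3 tissues share animals, while the tests between tissues treat their libraries as separate samples. The KI mice are labelled Jak1 KI +/- and were heterozygous for a histidine-to-aspartic acid change in the kinase Jak1, with silent changes in neighbouring codons, made with CRISPR-Cas9. They descended from a mosaic KI male, and the labels name no further line or founder. The sex and the litter of the mice, and whether same-numbered libraries of different tissues came from 1 mouse, are not given in the sources used here.

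Oligodendrocyte precursors divide and migrate through the developing brain, driven in part by platelet-derived growth factor acting on its receptor Pdgfra. The transcription factors Olig1, Olig2 and Sox10 set the identity of the lineage, and Sox10 later helps to switch on the myelin genes. In the mouse, myelin is laid down mainly after birth, first in the spinal cord and hindbrain and last in the forebrain. Several of the genes are shared with other cells: Sox10, Mbp, Mag and Cnp are used by Schwann cells, which myelinate peripheral nerves, Sox10 also by melanocytes, Pdgfra by fibroblasts and Cspg4 by pericytes. Skin, which holds nerves and pigment cells, and liver therefore served as the baseline.

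Each library held between 26549326 and 38388133 counts on genes. Levels are given as CPM, read counts scaled to library size with TMM factors. Levels of different genes are compared as CPM per kilobase (kb) of annotated exon, except in means of log2 CPM, which are not corrected for length. The tissue labels were checked against marker lists. A list of 10 neuronal genes summed to between 7782 and 9931 CPM in the brain libraries, to at most 125 CPM in skin and to at most 22.8 CPM in liver. A list of 8 fibroblast genes summed to between 53343 and 84394 CPM in skin. The brain library of WT 5 stood apart from the other brain libraries: its median absolute log2 difference from the mean of the other WT brains was 0.50, against 0.20 to 0.27 for the other 6 brain libraries, and results that lean on it are given with and without it. Jak1, the edited gene, lay at 149.9 and 154 CPM in the KI brains and between 93.9 and 153 CPM in the WT brains (log2 fold change 0.21, adjusted p = 0.719), and the counts per gene do not separate its alleles. In bulk tissue, fewer cells of a type and less RNA per cell cannot be told apart.

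The genes lie on different chromosomes except for Olig1 and Olig2, neighbours on chromosome 16. In the mm9 assembly, the build of the count files, Olig2 spans chr16:91225795-91228922 and Olig1 chr16:91270014-91272184, both on the plus strand. Pdgfra spans chr5:75548316-75594229 and Cspg4 chr9:56712911-56747677 on the plus strand, and Sox10 chr15:78985343-78994920 on the minus strand. Of the myelin genes, Cnp spans chr11:100436218-100453043 on the plus strand, Mag chr7:31684202-31699851 on the minus strand and Mog chr17:37147691-37160343 on the minus strand. Cnp overlaps the protein-coding gene Dnajc7 on the opposite strand, and the library kit does not mark strand, so reads from the overlap cannot be assigned to one of them.

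The RefSeq promoter table (GRCm38.p6, 250 bases before to 50 bases after a start site) had entries for 6 of the 9 genes, and none for Olig1, Sox10 and Mbp. The windows of 4 of these 6 are shown, genes that differ in how far they are confined to the brain. Olig2 and Mog were nearly absent from skin and liver, Mag was low there and Cnp was present throughout. Those of Pdgfra and Cspg4, which were higher in skin than in brain, are not shown. Capitals mark the motifs searched on both strands: TTCNNNGAA, the form bound by STAT factors that act downstream of Jak1, ACAAAG and ACAATG, forms bound by Sox factors, and TATAAA.
Olig2 (chr16:91225300-91225599, plus strand): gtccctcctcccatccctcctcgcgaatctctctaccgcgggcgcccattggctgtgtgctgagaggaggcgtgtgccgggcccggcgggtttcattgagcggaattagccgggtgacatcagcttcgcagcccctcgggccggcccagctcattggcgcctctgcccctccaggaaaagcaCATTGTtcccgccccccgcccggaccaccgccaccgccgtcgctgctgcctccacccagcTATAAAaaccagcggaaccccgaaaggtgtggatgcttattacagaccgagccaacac
Mog (chr17:37023349-37023648, minus strand): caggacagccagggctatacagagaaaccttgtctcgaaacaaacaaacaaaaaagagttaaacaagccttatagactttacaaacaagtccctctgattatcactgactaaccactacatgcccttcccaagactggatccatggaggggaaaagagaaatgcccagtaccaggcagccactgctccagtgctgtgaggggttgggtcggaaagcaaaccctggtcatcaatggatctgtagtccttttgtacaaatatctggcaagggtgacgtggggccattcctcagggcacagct
Mag, first of its start sites (chr7:30914814-30915113, minus strand): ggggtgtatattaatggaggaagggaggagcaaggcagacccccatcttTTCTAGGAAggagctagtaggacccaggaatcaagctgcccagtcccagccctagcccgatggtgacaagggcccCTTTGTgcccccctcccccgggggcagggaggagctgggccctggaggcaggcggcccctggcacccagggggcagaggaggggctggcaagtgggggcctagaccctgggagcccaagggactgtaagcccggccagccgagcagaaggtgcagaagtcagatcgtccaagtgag
Cnp (chr11:100574689-100574988, plus strand): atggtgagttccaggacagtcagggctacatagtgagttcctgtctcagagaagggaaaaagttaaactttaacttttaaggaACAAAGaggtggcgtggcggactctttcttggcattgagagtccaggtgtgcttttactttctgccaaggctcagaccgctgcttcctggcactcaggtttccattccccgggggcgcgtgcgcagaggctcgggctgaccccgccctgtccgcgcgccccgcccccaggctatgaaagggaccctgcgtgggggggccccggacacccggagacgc
The Olig2 window held 25 CG dinucleotides, that of Cnp 17, that of Mag 6 and that of Mog 3, against a median of 7 over 32851 promoter windows of the same length. The 2 genes nearly confined to the brain, Olig2 and Mog, thus had the highest and the lowest CG count of the 4 windows. The Olig2 window held 1 ACAATG match (12.6% of all windows held at least 1) and 1 TATAAA match (13.6%). The Cnp window held 1 ACAAAG match (18.7%), and the Mag window 1 ACAAAG match and 1 TTCNNNGAA match (8.3%). The Mog window held none of the 4 motifs. Neither did the windows not shown, those of Pdgfra (5 CG dinucleotides) and Cspg4 (17).

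To place the genes in the body at birth, the 5 WT brains were compared with the 5 WT skin and 5 WT liver libraries. All 9 genes differed between brain and skin, where 79.4% of the 17071 genes tested did: 6 were higher in the brain (39.1% of all genes) and 3 were lower (40.3%). All 9 were higher in brain than in liver, where 83.4% of all genes differed and 43.3% were higher in brain. The precursor genes split by kind: the Olig transcription factors were present almost only in the brain, while Pdgfra, Cspg4 and Sox10 were higher in the skin. The myelin genes Mbp and Cnp were found in all 3 tissues, and Mog in the brain with at most a few reads elsewhere.

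**Figure D1:**
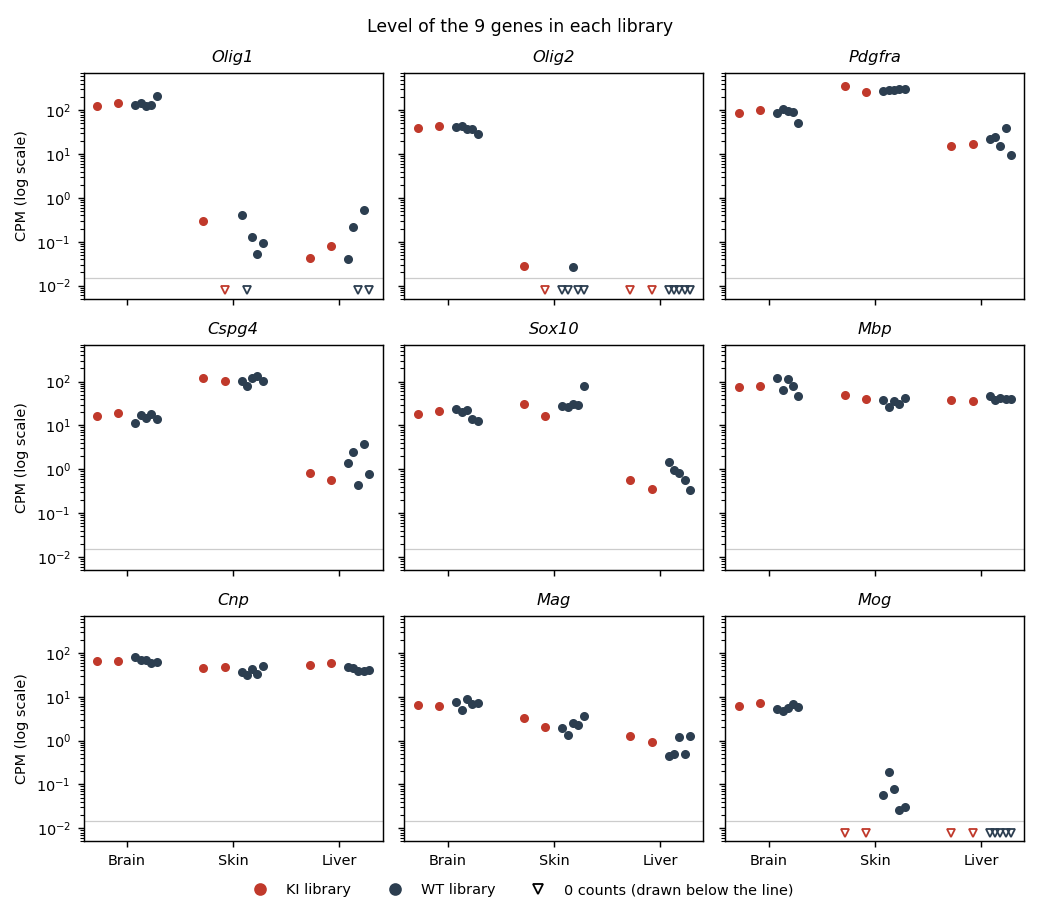
Level of each of the 9 genes (CPM, log scale) in every brain, skin and liver library, with KI libraries in red and WT libraries in dark blue, and open triangles for libraries with 0 counts. Olig1, Olig2 and Mog fall to between 0 and 14 reads outside the brain, Pdgfra and Cspg4 peak in the skin, and Mbp and Cnp stay between 26.1 and 119.8 CPM in all 21 libraries.

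Olig1 was the more abundant of the 2 Olig factors. It lay at 135, 148, 123, 129.8 and 208 CPM in WT brains 1 to 5, with 24 counts over the 5 WT skin libraries together and 19 over the 5 WT livers. The brain level was 1101 times that of the skin (95% counting interval 740.1 to 1719) and 923 times that of the liver (591 to 1533). Olig2, the factor that precursors need to form at all, lay at 40.8, 43.9, 37.3, 37.0 and 28.4 CPM in the WT brains. A single Olig2 read was counted over the 5 WT skin libraries, a ratio of 6858 with a counting interval of 1230 to 270900, and none over the 5 WT livers, which makes the brain level at least 1516-fold higher (floor of 3 counts over the group). These intervals cover counting error only.

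Pdgfra lay at 87.7, 105, 95.4, 90.9 and 51.3 CPM in the WT brains, between 281 and 311 CPM in WT skin and between 9.30 and 39.7 CPM in WT liver, with no overlap between tissues. It was 0.292 times as high in brain as in skin (log2 fold change -1.78, 95% interval -2.41 to -1.15, adjusted p = 4.73e-05). Cspg4, which encodes the proteoglycan NG2, lay between 11.3 and 18.2 CPM in WT brain, between 79.4 and 137 CPM in WT skin and between 0.430 and 3.87 CPM in WT liver (brain against skin -2.86, -3.63 to -2.08). Sox10 lay between 12.5 and 23.2 CPM in WT brain and between 26.8 and 78.6 CPM in WT skin (-1.09, -1.81 to -0.37, adjusted p = 0.00852), and at most at 1.46 CPM in WT liver. The WT libraries numbered 5 include both the lowest brain library and the highest skin library for Sox10. Without them the difference was -0.56 on the log2 scale and still called (adjusted p = 0.0284).

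Genes listed for other cell types that use Pdgfra, Cspg4 or Sox10 were also found in skin. In WT skin the fibroblast genes Col1a1 and Col3a1 reached 3134 ± 633 and 2806 ± 436 CPM per kb (SD, n = 5), the pericyte list genes Des, also a muscle gene, and Anpep 216 ± 90.7 and 37.9 ± 7.36, the Schwann cell list genes Pmp22 and Cryab 138 ± 14.4 and 113 ± 25.9, and the melanocyte genes Dct and Pmel 32.5 ± 28.2 and 24.0 ± 22.6. Of the lists these come from, 8 of 8 fibroblast and 6 of 8 pericyte genes were lower in brain than in skin. So were 11 of 18 Schwann cell and 7 of 9 melanocyte genes, against 40.3% of all genes. Higher in brain were 4 Schwann cell genes and 1 pericyte gene. Summed Schwann cell genes reached 617 to 827 CPM in WT skin and 459 to 616 CPM in WT brain. The part of these cell types in the skin levels of Pdgfra, Cspg4 and Sox10 was not tested.

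The myelin genes varied in how far they were shared. Mbp, myelin basic protein, lay at 119.8, 64.9, 116, 78.3 and 45.8 CPM in the WT brains, between 26.1 and 43.2 CPM in WT skin and between 39.03 and 46.2 CPM in WT liver. The brain level was 2.41 times that of skin (1.74 to 3.32) and 1.99 times that of liver (1.44 to 2.74), although brain WT 5 lay within the range of the livers. Cnp, a phosphodiesterase of uncompacted myelin, lay between 58.8 and 80.3 CPM in WT brain, between 31.2 and 51.3 CPM in WT skin and between 38.1 and 46.7 CPM in WT liver, so that the brain exceeded skin 1.72-fold (1.41 to 2.10) and liver 1.60-fold (1.31 to 1.95). Both genes thus gave at least 806 reads in each liver library, a tissue without oligodendrocytes. The counts per gene do not tell their transcripts apart.

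Mag, an adhesion protein of the inner myelin membrane, lay between 4.95 and 8.82 CPM in WT brain, between 1.34 and 3.59 CPM in WT skin and between 0.445 and 1.31 CPM in WT liver. It was 3.01 times as high in brain as in skin (1.83 to 4.96) and higher in skin than in liver (log2 fold change 1.56, adjusted p = 0.00109). Mog, which lies on the outer surface of central myelin and is not made by Schwann cells, lay between 4.84 and 6.86 CPM in WT brain. Only 14 Mog reads were counted over the 5 WT skin libraries, and the brain level was 74.0 times as high (43.9 to 136). No Mog read was counted in any of the 7 livers, so the WT brain was at least 229-fold higher than the WT liver.

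Between skin and liver, 5 of the 9 genes were higher in skin (39.8% of all genes) and none was lower (32.5%). These were Pdgfra (log2 fold change 3.71), Cspg4 (5.89), Sox10 (5.53), Mag (1.56) and Mog, whose liver level was 0. Mbp (-0.27, 95% interval -0.73 to 0.19) and Cnp (-0.10, -0.39 to 0.18) did not pass the test. Mbp did pass without the WT libraries numbered 5 (-0.36, adjusted p = 0.0991).

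In the WT brain the genes ranked, per kb of exon, Olig1, Cnp, Olig2, Pdgfra, Mbp, Sox10, Mog, Mag and Cspg4. Olig1 stood 3.68 times above Cnp, the next gene, and Sox10 2.02 times above Mog, in both cases with no overlap among the 5 libraries. Every other pair of neighbours overlapped, so adjoining places within the run from Cnp to Sox10 and within that from Mog to Cspg4 were not separated, while genes further apart could be: Cnp, between 16.1 and 22.1 CPM per kb, did not overlap Pdgfra (7.61 to 15.6), Mbp or Sox10, nor Olig2 Sox10, nor Mog Cspg4. The order depends on the length used: per kb of the longest transcript Mbp stood at 17.7 instead of 10.1 and came after Cnp, above Olig2 and Pdgfra. The leading gene, Olig1, reached 68.6 ± 15.9 CPM per kb (SD, n = 5) and the last, Cspg4, 1.89 ± 0.352. In WT skin the order began with Pdgfra, Sox10, Cspg4, Cnp and Mbp, and in WT liver with Cnp, Mbp and Pdgfra.

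**Figure D2:**
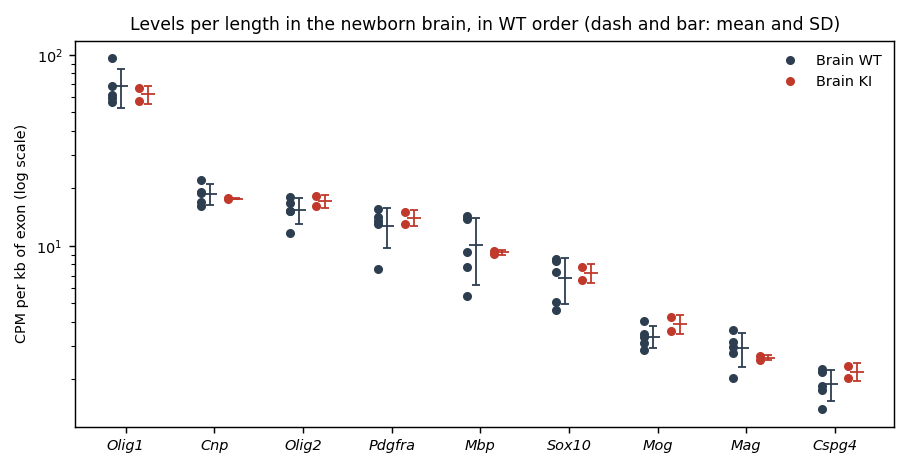
Level of the 9 genes in the brain libraries (CPM per kb of exon, log scale), in the order of their WT means, with 1 point for each WT library (dark blue) and KI library (red) and a dash and bar for mean and SD. Olig1 stands above all others, a group from Cnp to Sox10 follows, and Mog, Mag and Cspg4 lie lowest in both genotypes.

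To set the precursor stage against the myelin stage at birth, the levels of each stage were summed. The 5 precursor genes reached 105 ± 11.01 CPM per kb in the WT brains and the 4 myelin genes 35.0 ± 5.96, and the precursor sum was 3.11 ± 0.786 times the myelin sum (SD, n = 5). The ratio was 2.39, 3.54, 2.40, 2.97 and 4.23 in WT brains 1 to 5 and 2.90 and 3.25 in the KI brains. The precursor sum was larger in all 7 brain libraries, and Olig1 alone carried 68.6 of the 105 CPM per kb. Without WT 5 the WT ratio was 2.83, and per kb of the longest transcript 2.33. In the baseline tissues the ratio was 4.56 ± 0.519 in WT skin and 0.234 ± 0.129 in WT liver (SD, n = 5). The myelin sum was 15.9 ± 3.22 CPM per kb in WT skin and 16.8 ± 1.13 in WT liver. A larger precursor sum was thus not particular to the brain. The mean of log2 CPM gives each gene the same weight and is not corrected for length. On it, the precursor genes lay above the myelin genes by 0.74, 1.39, 0.77, 0.92 and 0.92 in the WT brains. In the KI brains they did so by 0.99 and 1.14. The KI mean exceeded the WT mean by 0.12, less than the SD of 0.26 among the WT brains, and the KI values lay within the WT range.

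**Figure D3:**
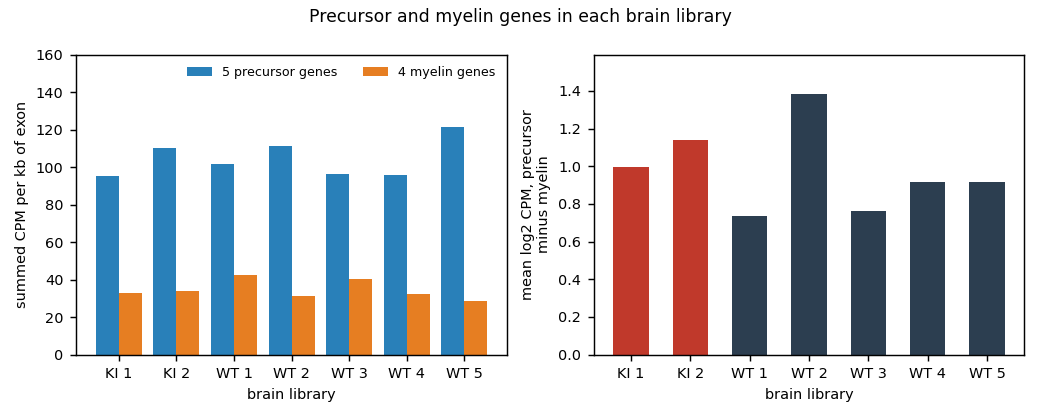
Left, summed level (CPM per kb of exon) of the 5 precursor genes (blue) and the 4 myelin genes (orange) in each brain library; right, mean log2 CPM of the precursor genes minus that of the myelin genes, with KI in red and WT in dark blue. The precursor sum is above the myelin sum in each library, and the KI differences of 0.99 and 1.14 lie between the lowest and highest WT values, 0.74 and 1.39.

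Single genes of the myelin list lay far apart in the same libraries, and the 3 that follow were singled out after their values were seen. Opalin and Klk6, expressed by mature oligodendrocytes, had 0 counts in all 7 brain libraries. Mobp, a protein of compact myelin, reached at most 3.18 CPM. The 25 further myelin genes together summed to between 298 and 410.4 CPM in the WT brains, where 2 of them were at 0 throughout. Their sum was higher in the baseline tissues: 477 to 1551 CPM in WT skin and 61637 to 77998 CPM in WT liver. It was thus not particular to myelin. Of the 4 most abundant genes of each further list in the WT brains, the precursor list held Lhfpl3 (76.0 ± 21.2 CPM per kb), Bcan (45.2 ± 5.03), Ptprz1 (38.6 ± 12.8) and Cacng4 (20.3 ± 3.40). The list of differentiating cells held Fyn (49.4 ± 1.75), Tcf7l2 (26.5 ± 15.9), Sirt2 (23.9 ± 1.31) and Tmem163 (20.97 ± 4.05). The myelin list held Apod (26.8 ± 16.9), Car2 (18.9 ± 5.51), Nfasc (10.7 ± 2.29) and Cldn11 (7.26 ± 4.32). Neurons, astrocytes, vessel and choroid plexus cells use several of these genes too, and the share from each cell type was not measured.

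The KI and WT brains were then compared gene by gene. None of the 9 genes differed at an adjusted p under 0.1, the percentage of all 16322 tested genes called was 0%, and none of the 9 reached an unadjusted p under 0.05, which 10.6% of all genes did. DESeq2, which called 513 genes, called none of the 9. Of the 9 log2 fold changes 5 were above and 4 below zero, from -0.16 for Mag to 0.22 for Mog, with a median of 0.09 against -0.02 for all genes. In no case did both KI libraries lie outside the range of the 5 WT libraries, which 27% of all genes did.

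**Figure D4:**
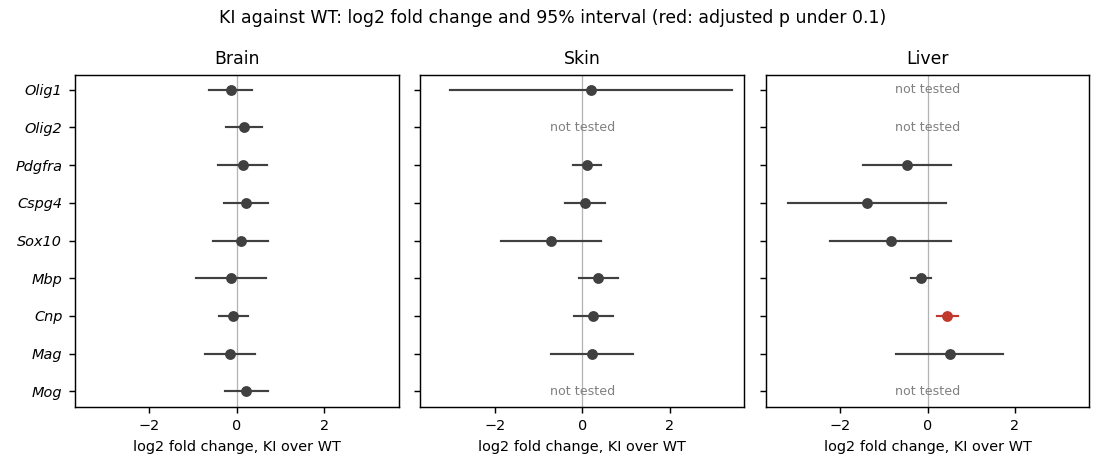
Log2 fold change of KI over WT for the 9 genes in brain, skin and liver, each a point with its 95% interval, in red where the adjusted p was under 0.1. In the brain all intervals cross zero, and Cnp in the liver (0.45, 0.21 to 0.70) is the sole called gene.

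Among the precursor genes, Olig1 lay at 124 and 145 CPM in the KI brains, within the WT range of 123 to 208 (log2 fold change -0.14, 95% interval -0.63 to 0.35). Olig2 lay at 39.5 and 44.3 CPM, the second just above the highest WT library, 43.9 (0.16, -0.25 to 0.57). Pdgfra lay at 88.2 and 100.8 CPM (0.13, -0.43 to 0.70), Cspg4 at 16.3 and 19.0 CPM (0.21, -0.28 to 0.71) and Sox10 at 18.0 and 21.1 CPM (0.09, -0.54 to 0.71). The upper ends of the intervals stood at 1.64-fold for Cspg4 and Sox10. The intervals are for single genes, without adjustment over all genes tested. They do not give the smallest difference that would be called with 2 KI brains. In this comparison no gene was called, whatever its fold change.

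Of the myelin genes, Mbp lay at 76.1 and 79.2 CPM in the KI brains, amid a WT range of 45.8 to 119.8 (-0.13, -0.94 to 0.68). Its interval was the widest of the 9. Cnp, with the narrowest, lay at 64.1 and 64.5 CPM (-0.08, -0.41 to 0.26), Mag at 6.45 and 6.17 CPM (-0.16, -0.73 to 0.41) and Mog at 6.09 and 7.20 CPM (0.22, -0.27 to 0.70, adjusted p = 0.747, the lowest of the 9). Without WT 5 edgeR called 1698 genes in the brain but again none of the 9, and the largest change among them was that of Mbp, -0.27 (adjusted p = 0.549). Olig1 then turned to 0.029 and Sox10 to -0.0041.

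Further genes of the lineage gave no call in the brain either. Of 19 other precursor genes tested 13 lay above zero (median log2 fold change 0.08), of 12 genes of differentiating cells 5 (median -0.04) and of 26 growth signals and receptors 17 (median 0.19). Of 23 other myelin genes tested 4 lay above zero and 19 below, with a median of -0.26 against -0.02 for all genes. Cacng4 had a log2 fold change of 0.51 (unadjusted p = 0.0196, adjusted p = 0.381) and Hes5, a Notch target that holds progenitors undifferentiated, one of -0.69 (adjusted p = 0.391). Among the other abundant growth-signal genes, Id2 had -0.52, Id4 0.35 and Lingo1, an inhibitor of differentiation, 0.31, none past the test. The summed level of 8 astrocyte and radial glia genes was 2428 and 2447 CPM in the KI brains and between 3103 and 5006 CPM in the WT brains, although 5 of the 8 genes lay above zero (median log2 fold change 0.06) and none was called. Fabp7, a radial glia gene named after its values were seen, made up most of the gap, with 1124 and 1011 CPM in the KI brains and between 1971 and 3419.5 CPM in the WT brains (log2 fold change -1.20, adjusted p = 0.255). The summed neuronal genes were at 8563 and 7782 CPM in the KI brains, below the 8784 to 9931 CPM of the WT brains. The summed pericyte genes, a cell type that also uses Cspg4, were at 194 and 199.8 CPM, above the WT brains (93.6 to 189.8). None of the 10 neuronal genes (median log2 fold change -0.07) or the 8 pericyte genes (median 0.44) was called. Among all single genes tested in the brain, 27% likewise had KI and WT libraries that did not overlap. The part of these cell types in the values of the 9 genes was not tested.

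The brain libraries also differed in genes of body position, chosen after their values were seen. The Hox genes, which are active in the hindbrain and spinal cord, summed over 39 genes to 410.3 CPM in WT 1 and 382 in WT 3, to 213 in KI 2, 194 in WT 4 and 156 in KI 1, and to 21.9 in WT 2 and 14.5 in WT 5. Mbp fell in the same order as the Hox sum in 7 of 7 libraries, from 119.8 CPM in WT 1 and 116 in WT 3, through 79.2 in KI 2, 78.3 in WT 4 and 76.1 in KI 1, to 64.9 in WT 2 and 45.8 in WT 5. Sox10 held the same place as the Hox sum in 5 of the 7, Pdgfra and Cnp in 3, Mag in 2, Olig1 and Olig2 in 1 and Cspg4 and Mog in none. The Hox sums fall into separate clusters, so no correlation was computed.

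**Figure D5:**
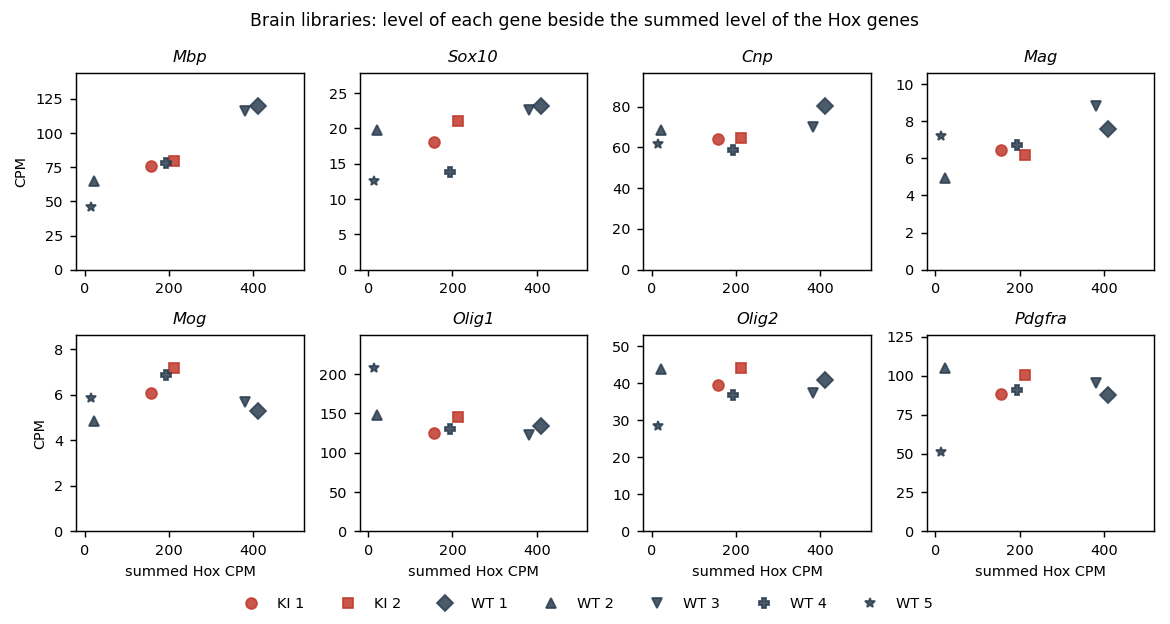
CPM of 8 of the 9 genes beside the summed CPM of 39 Hox genes, 1 symbol per brain library, KI in red and WT in dark blue. Mbp climbs with the Hox sum from WT 5 at 45.8 CPM to WT 1 at 119.8 CPM with both KI brains in the middle, while Olig1, Olig2 and Pdgfra show no such order.

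Of genes named after their values were seen, Mobp, Ugt8a, an enzyme of myelin lipid synthesis, and Bcas1, a marker of cells starting to myelinate, had their 2 highest levels in WT 1 and WT 3, the pair with the highest Mbp. Tcf7l2, by contrast, was at 23.5 CPM in WT 1 and between 163 and 363 CPM in the others. With the Hox sum as a covariate, added after seeing the data, 0 of all genes were called between KI and WT brains. None of the 9 was therefore called (Mbp -0.26, adjusted p = 0.595). The part of tissue sampling in the spread of Mbp was not tested.

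Brain WT 5 showed the members out of step. It was the lowest of the 7 brains for Olig2 (28.4 CPM against 37.0 to 44.3), Pdgfra (51.3 against 87.7 to 105), Sox10 (12.5 against 13.9 to 23.2) and Mbp (45.8 against 64.9 to 119.8), and the highest for Olig1 (208 against 123 to 148). The Olig1 to Olig2 count ratio, 3.15 to 3.51 in the other 6 brains, was 7.34 there. Across 16368 genes, which are not independent replicates, its log2 difference from the other WT brains had a Spearman rho with exon length of -0.40. The 2 KI brains had 0.39 and 0.41 and the other 4 WT brains between 0.048 and 0.37. These 6 brains were each set against a mean that includes WT 5, so their values can partly mirror that of WT 5. Mbp and Pdgfra, lowest in WT 5, have exons of 8403 and 6737 bases in total, and Olig1, highest there, of 2171. Olig2 and Sox10, also lowest in WT 5, have 2437 and 2713 bases. Cspg4, within the range of the other brains, has 8050. The part of gene length in the levels of WT 5 was not tested. With an offset for gene length none of the 9 genes was called in the brain, where 0 of all genes were. Pdgfra (-0.027) and Cspg4 (-0.0097) then moved below zero.

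In the skin, where 0.0247% of 16163 tested genes were called, none of the 7 members tested was. Olig2 and Mog were too low to test, and Olig1 had at most 14 counts in a library. The other log2 fold changes were 0.37 for Mbp (95% interval -0.08 to 0.82), 0.25 for Cnp, 0.22 for Mag, 0.10 for Pdgfra, 0.07 for Cspg4 and -0.71 for Sox10 (-1.86 to 0.44), with a median of 0.20 over the 7 against -0.03 for all genes. No member had both KI libraries outside the WT range, which 9.75% of genes did. Mbp lay at 50.2 and 40.2 CPM in the KI skins against 26.1 to 43.2. Sox10 lay at 31.1 and 16.2 CPM in the KI skins, and its log2 fold change was -0.29 without skin WT 5, -0.33 without KI 2 and -1.21 without KI 1. None of the 18 Schwann cell, 9 melanocyte, 8 pericyte and 8 fibroblast genes was called in the skin.

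In the liver, where 5.57% of 14966 tested genes were called and 3.89% were higher in KI, 1 of the 6 members tested was called. Cnp lay at 54.4 and 59.5 CPM in the KI livers and at 46.7, 44.6, 38.5, 38.1 and 40.3 CPM in the WT livers, with no overlap (log2 fold change 0.45, 95% interval 0.21 to 0.70, adjusted p = 0.066). The call was lost under several alternatives, among them an adjusted p under 0.05, a fit of all 21 libraries (adjusted p = 0.298) and leaving out KI 1 (0.193), KI 2 (0.414) or WT 3 (0.113). Dnajc7, whose locus overlaps Cnp, had a log2 fold change of 0.11 (adjusted p = 0.579). Mbp, lower in both KI livers (38.8 and 36.4 CPM) than in all WT livers (39.03 to 46.2), did not pass the test (-0.16, -0.38 to 0.07, adjusted p = 0.449). Both KI libraries lay outside the WT range for 2 of the 6 members, against 24.4% of all genes.

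The remaining members were low in the liver and none was called. Pdgfra had a log2 fold change of -0.46, Cspg4 of -1.39 and Sox10 of -0.84, with wide intervals, and Mag, at 1.31 CPM or less in all livers, of 0.50. The median over the 6 members was -0.31 against -0.02 for all genes. Of the 8 microglia and macrophage genes 4 were higher in the KI livers, and their summed level was 1240 and 1491 CPM there against 769 to 1073 CPM in WT, and their part in the Cnp result was not tested. The 7 fibroblast genes tested in the liver all lay below zero (median -0.90), and none was called. Their list summed to 908 and 811 CPM in the KI livers, within the WT range, in which WT 2 (2085) and WT 4 (2178) stood above the others (737 to 1112). Without WT 4 the log2 fold change of Pdgfra was -0.15 and that of Cspg4 -0.92.

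The KI effect was also compared between tissues. No member differed in its KI effect between brain and skin, where 0% of 18062 genes were called and 7.41% had an unadjusted p under 0.05, or between brain and liver, where 2.81% were called. The lowest unadjusted p between brain and liver was that of Cspg4 (difference of log2 fold changes 1.72, adjusted p = 0.251), followed by Cnp (-0.43, adjusted p = 0.395). Between brain and skin 1 of the 9 had an unadjusted p under 0.05, Mog, whose adjusted p was 0.527 and which had 0 counts in both KI skins.

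Likeness in pattern was measured as the root mean square difference of centred log2 CPM over the 21 libraries, as a description. The genes most like the mean of the 5 precursor genes were Lrfn1 (0.31), Dlg4 (0.37), Ncs1 (0.37), Gpr50 (0.40) and Stox2 (0.40). Those most like the mean of the 4 myelin genes were Calm3 (0.18), Nicn1 (0.20), Prkacb (0.20), Zfp60 (0.21) and Dynll2 (0.22). Both means blend genes with different tissue patterns, as with Olig2 and Pdgfra, which differed from each other by 4.55 over the 21 libraries but by 0.15 within the 7 brain libraries. Olig1 and Olig2 differed by 0.94 over all libraries and by 0.40 within the brain.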

How the data were processed

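Brain, skin and liver RNA of 2 KI and 5 WT newborn mice was sequenced. The authors prepared libraries with a TruSeq kit that does not mark strand, trimmed the paired-end reads and aligned them to mm9 with TopHat2, as the study's methods state, and the submitters' processing notes name HTSeq. The annotation, overlap mode and strand setting used for counting are not given in the sources used here. The values deposited by the authors are raw read counts for each symbol, without normalization. Reads listed apart as lying on no gene (10.3% to 18.3% of uniquely aligned reads) or on more than 1 gene (1.15% to 2.19%) were left out of library sizes and tests. The skin RNA was less intact than that of the liver, according to the methods, and a value for brain is not given in the sources used here.

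Differences were tested by edgeR 4.0.16 (quasi-likelihood fit, TMM factors, genes kept by filterByExpr) under R 4.3.3. A gene was called when its p, adjusted over all genes tested by the Benjamini-Hochberg method, was under 0.1. KI and WT were compared within each tissue, tissues within the 15 WT libraries, and KI effects between tissues by an interaction term over all 21 libraries. CPM used TMM library sizes on 1 scale for all libraries, with a prior count of 2 where logs were taken, and exon lengths came from GENCODE vM1 on NCBIM37 (mm9). Alternatives were DESeq2 1.42.0, its size factors, no filter beyond 1 count, the replicate number as a block, all 21 libraries in 1 fit, an offset for gene length (loess, span 0.3), an adjusted p under 0.05 and each library or mouse left out. For KI against WT, the block leaves only libraries whose number both genotypes have to be compared. A mouse left out stands for the libraries of 1 genotype that share a number, which may not be from 1 mouse. The Hox covariate and the length offset without brain WT 5 were added after seeing the data. The edgeR fit was tested on simulated counts for KI against WT in each tissue and for WT brain against skin and liver. It was also tested for the KI effect in brain minus that in skin. The other comparisons and steps were not tested in this way. Intervals of fold changes are 95% intervals, and ratios to groups with few reads have exact counting intervals. Figures used Python 3.11.15 and matplotlib 3.10.9.

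The 9 genes and all further lists were chosen with earlier results of these data known. Genes named beside the 9 were the 4 most abundant per kb in WT brain of the lists of other precursor, differentiating, myelin and growth-signal genes, the 2 most abundant in WT skin of the Schwann cell, melanocyte, pericyte and fibroblast lists, the 5 genes most like each stage, and Jak1. Any other gene was named after its values were seen. Of the remaining marker lists, summed endothelial genes reached 203 to 220.5 CPM in the KI brains. They reached 138 to 229 CPM in the WT brains. Summed erythroid genes reached at most 13.6 CPM in any brain. However, 4 of the 6 erythroid genes had 0 counts in all KI brains and all WT brains, and 4 also in all KI livers. The erythroid sum thus rests on few genes and was not taken as a measure of blood. The replicates are separate mice by the study's methods. Results for a few single genes are not reported here.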

Additional observations from a re-analysis of the deposited data

Results flagged for a closer look

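In the WT skin, Sox10 stood at 78.6 CPM in WT 5, far from the other 4 libraries, the nearest of which was at 31.1 CPM. The gap was 0.917 of the whole range of the group, above Dixon's 95% critical value of 0.71 for 5 libraries. It was the sole such value among 24 groups of WT libraries examined, and chance alone sets off about 1 in 20. In the same library the summed Schwann cell genes were at 827 CPM, the highest of the WT skins (617 to 827), and the summed melanocyte genes at 132 CPM, the lowest (132 to 489). The part of either cell type in the Sox10 level was not tested.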

How the results depend on the processing

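None of the 9 genes was called in the brain under any alternative, and all 9 differed between WT brain and both other tissues in all of them. Between KI and WT, the replicate block compares only the numbers that both genotypes have, 1 and 2, and so leaves out WT 3, 4 and 5. With the length offset or with the Hox covariate, 0 of all genes were called in the brain. For all genes in the brain, called genes numbered 0 as reported, 513 with DESeq2, 614 in the fit of all 21 libraries, 2165 with the replicate block and 0 to 1698 with one library left out (1118 without WT 5 and with the length offset). In the skin the 4 called genes became 0 at an adjusted p under 0.05, 111 with DESeq2, 23 in the 21-library fit, 0 with the replicate block, 2 with the length offset and 0 to 1 with one library left out. In the liver the 833 became 383 at 0.05, 1473 with DESeq2, 242 in the 21-library fit and 56 to 1290 with one library left out (56 without KI 2, 232 without KI 1, 1290 without WT 4). The single liver member, Cnp, became 0 at 0.05, in the 21-library fit and with the replicate block (log2 fold change 0.32, adjusted p = 0.209), and 0 to 1 with one library left out. Genes whose KI effect differed between brain and liver numbered 508 as reported and 0 to 881 with one mouse left out (0 without KI 2, 3 without KI 1, 134 without WT 1, 242 without WT 2, 881 without WT 5).

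In the brain, small log2 fold changes crossed zero: with the replicate block Olig2 (-0.017), Pdgfra (-0.027), Sox10 (-0.14) and Mag (0.039), with the length offset Pdgfra (-0.027) and Cspg4 (-0.0097), in the 21-library fit Cnp (0.0063), and with the length offset and without WT 5 Olig1 (0.074), Pdgfra (-0.10) and Sox10 (-0.0040). With one library left out, ranges crossed zero for Olig1 (-0.26 to 0.029, above zero without WT 5), Sox10 (-0.029 to 0.22), Mbp (-0.27 to 0.043) and Cnp (-0.12 to 0.0062) in the brain and for Pdgfra (-0.089 to 0.30), Cspg4 (-0.0078 to 0.17) and Mag (-0.11 to 0.51) in the skin. So did Cnp between WT skin and liver (-0.22 to 0.0023), and the KI effect in brain minus skin of Pdgfra (-0.19 to 0.41) and Mag (-0.56 to 0.017) and in brain minus liver of Mbp (-0.020 to 0.27). The values with the replicate block rest only on libraries whose number both genotypes have. The cause of the other changes was not tested. The replicate numbers were not taken as a pairing: after removing group means, KI and WT libraries that share a number had r between -0.08 and 0.17 over genes, with 2 pairs per tissue. Between tissues of WT mice r was -0.0045 to 0.17; brain and skin each correlated best with the liver of the same number in 5 of 5, and brain with skin in 3 of 5, a hint from the data and not from the design, and the block changed no call of the 9 genes between tissues. The 2 KI mice limit the precision of every comparison of genotypes.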
